A study of Mus musculus with 6 samples.

Results

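The genes described here encode ligands, receptors, a coreceptor and antagonists of the Nodal and activin pathway, and the 9 of them were chosen by name: Nodal, Gdf3, Tdgf1, Acvr1b, Acvr2b, Lefty1, Lefty2, Cer1 and Fst. The array annotation gives 16 probe sets to these genes, each with a single gene symbol, out of 45037 probe sets without the array's controls and 18193 genes with a probe set of their own. The data are 6 Affymetrix mouse arrays of embryoid bodies, the aggregates in which embryonic stem cells differentiate. All bodies were grown for 10 days from the D3 mouse embryonic stem cell line, without the self-renewal factor LIF, in rotary culture, and all contained gelatin-coated microspheres. In 3 samples the microspheres were loaded with retinoic acid (RA), a vitamin A metabolite that binds nuclear receptors, and in the 3 control samples they carried the dye CellTracker Red. The labels mention several microsphere to cell ratios and rotary speeds without assigning them to arrays, and they do not say that the triplicates were separate cultures, so the p-values reflect only how far these arrays scatter, and that scatter may be technical in origin.

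Nodal and the activins are secreted dimers of the TGF-beta superfamily. They bind type II receptors such as Acvr2b, which activate type I receptors such as Acvr1b, and Nodal also needs an EGF-CFC coreceptor such as Cripto, the product of Tdgf1. The receptors phosphorylate Smad2 and Smad3, which enter the nucleus with Smad4 and act with DNA-binding partners such as Foxh1. In the mouse embryo the pathway maintains the epiblast and specifies the primitive streak and endoderm, and it is limited by secreted antagonists: Lefty proteins, which are induced by the pathway itself, and Cerberus-like protein (Cer1) from anterior visceral endoderm. Follistatin (Fst) binds and neutralizes activins.

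Bodies with RA microspheres had more Cer1, Fst (3.50-fold) and Tdgf1 (2.80-fold) mRNA than control bodies. For Cer1 the control signal was near background, so the size of its rise is not fixed: the log2 fold change was 2.26 to 3.58 over the pseudocounts tried. Acvr2b was 1.6-fold higher, and Nodal was 1.28-fold higher, which only narrowly passed the test. Lefty1, Lefty2, Gdf3 and Acvr1b did not pass. The genes of this group thus did not change together: of the 4 antagonists, 2 rose strongly and the 2 Lefty genes did not pass. With limma, 5 of the 9 genes were called higher and 0 lower with RA at an adjusted p threshold of 0.05, and over all 27022 probe sets kept after a filter on dim signals, 11.3% were called higher, 11.1% lower and 22.4% in either direction. The 5 of 9 is per gene, by its brightest kept probe set, whereas these shares are per probe set. Every gene had at least 1 probe set above the filter, and 10 of the 16 probe sets passed it. Cer1 passed it through its RA arrays, since its control mean lay below the filter level of 5.74, so its call is a description only. The median log2 fold change was 0.36 over the 9 genes and 0.04 over all kept probe sets.

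Levels are log2(intensity + 16) after quantile normalization, each gene is given by its brightest kept probe set, and a log2 fold change is RA minus control on that scale with its standard error (SE), which understates the change of dim genes. Group values are means ± SD with n = 3. Trimmed mean deposited signal was 170.1 to 191 on RA arrays and 108 to 172 on control arrays, with control array 3 the dimmest, so the deposited values carry differences in overall brightness. RA array 1 had a ratio of 3-prime to 5-prime Gapdh signal, a sign of RNA integrity, of 34.0, against 3.06 to 4.74 on the other 5 arrays. The same ratio for beta-actin was 7.42, 4.35 and 4.90 on RA arrays and 3.46, 3.35 and 4.24 on control arrays, so every RA array lay above every control array (exact two-sided permutation p = 0.1, the smallest possible with 3 against 3). This sign of RNA quality thus moved with the groups in every comparison given here, and its part in the results was not tested. Without scaling, the median log2 fold change of all kept probe sets was 0.27, and 2915 probe sets were called higher and 1025 lower, against 3051 higher and 3008 lower with quantile normalization. Each array measured whole bodies, so a change in the number of cells that express a gene and a change in RNA per cell cannot be told apart. Markers of other cell types also differed in these bodies. On the normalized linear scale the summed signal of 6 heart muscle genes was 549.7 to 580.1 on RA arrays and 12515 to 17011 on control arrays, and that of 7 visceral endoderm genes was 8845 to 10267 on RA arrays and 23511 to 25615 on control arrays. The visceral endoderm list split: Afp, Ttr, Apoa1 and Hnf4a were called lower, while Cubn (9.29-fold), Amn (7.65-fold) and Rhox5 (5.10-fold) were called higher, although the control mean of Amn (5.64) lay below the filter level.

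**Figure D1:**
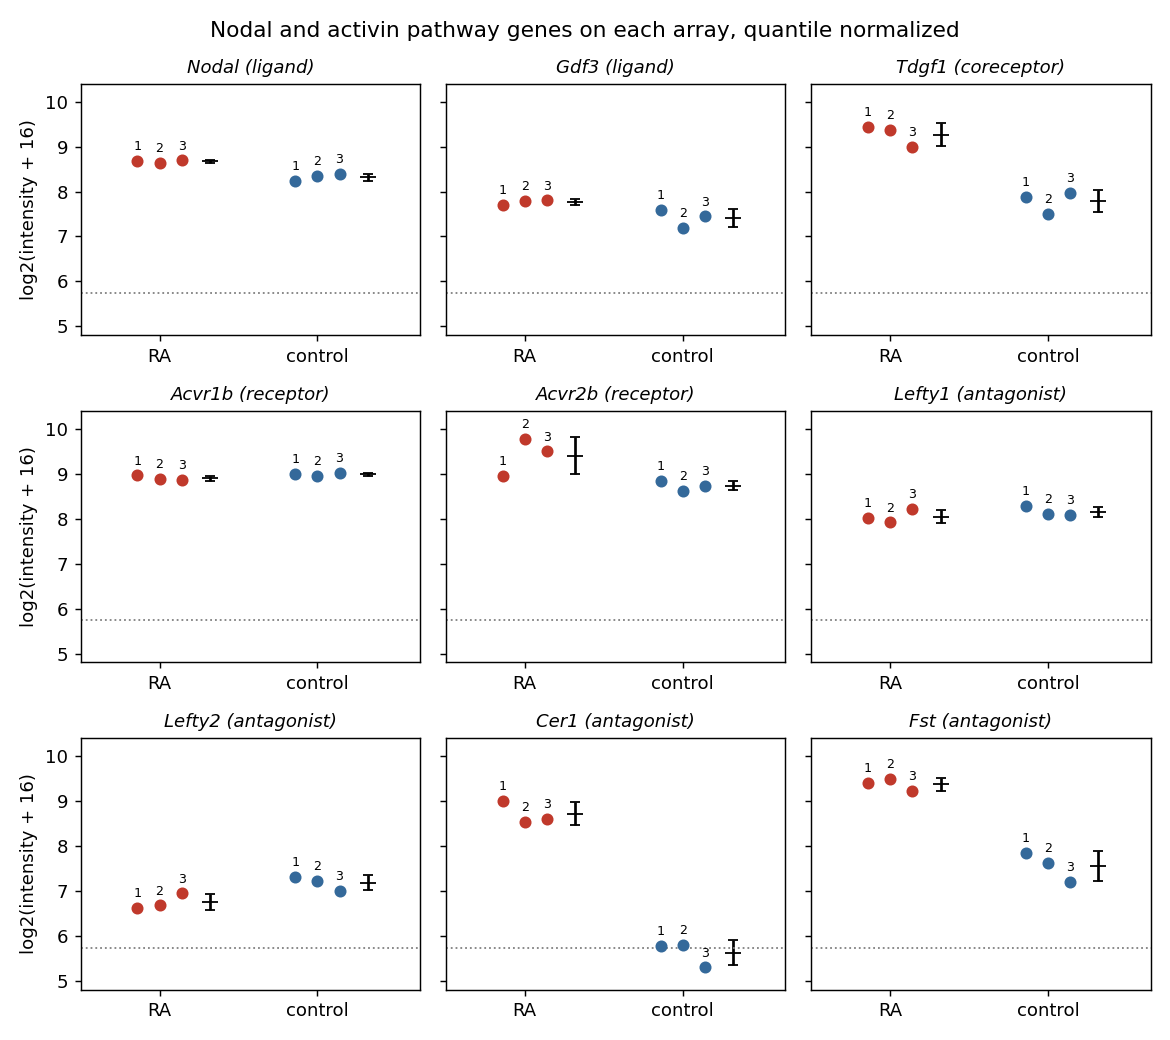
Normalized log2(intensity + 16) of the 9 genes on each array, with RA arrays (red) left of control arrays (blue), array numbers above the points, and the mean with SD (n = 3) beside each group; the dotted line is the filter level of 5.74. Cer1, Fst and Tdgf1 show wide gaps between the groups, whereas the Lefty1 and Acvr1b groups overlap.

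Among the ligands, Nodal lay at 8.69, 8.64 and 8.69 on RA arrays 1, 2 and 3 and at 8.23, 8.34 and 8.38 on control arrays 1, 2 and 3. Every RA array was above every control array, but the gap was small. Nodal averaged 8.67 ± 0.03 with RA and 8.32 ± 0.08 in controls, a log2 fold change of 0.35 ± 0.11 (SE) with a limma adjusted p of 0.0445. The call was lost in 13 of 19 alternative settings, among them the leaving out of any single array, while the fold change stayed between 0.31 and 0.61. The second Nodal probe set lay below the filter, with deposited intensities of 14.7, 40.6 and 73.7 on RA arrays and 59.1, 18.8 and 10.9 on control arrays, and the groups overlapped. Primitive streak markers, a site of Nodal expression, were higher in all 4 kept genes of 8 listed. Their summed normalized signal was 1241 to 1510 on RA arrays and 229 to 289 on control arrays. Of the 4, Sp5 had a control mean (5.36) below the filter level and was kept through its RA arrays. The part of these markers in the Nodal difference was not tested.

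Gdf3, a TGF-beta family ligand of stem cells with Nodal-like activity, lay at 7.70, 7.80 and 7.80 on RA arrays and at 7.58, 7.18 and 7.45 on control arrays. The groups did not overlap, with RA above by a small margin. Its log2 fold change was 0.36 ± 0.16 and did not pass (limma adjusted p = 0.140), with a 95% confidence interval of 0.0073 to 0.72 before adjustment for multiple testing. Its second probe set was below the filter and overlapped between groups.

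Tdgf1, which encodes the coreceptor Cripto, lay at 9.44, 9.38 and 8.98 on RA arrays, against 7.87, 7.50 and 7.97 on control arrays. The lowest RA array exceeded the highest control array by a wide margin. The log2 fold change was 1.49 ± 0.16 (limma adjusted p = 9.01e-05), and it stayed between 1.31 and 1.74 and called in all 19 alternatives. RefSeq also lists the pseudogenes Tdgf1-ps1 and Tdgf1-ps2, and whether this single probe set reads them was not tested. Epiblast markers moved with Tdgf1: all 7 listed genes, among them Pou5f1 and Fgf5, were called higher, and their summed normalized signal was 10494 to 11169 on RA arrays and 866 to 1178 on control arrays. Of the 7, Zic2 and Foxd3 had control means (5.57 and 5.03) below the filter level and were kept through their RA arrays. Dnmt3b was the brightest of the 7 (means of 12.72 with RA and 8.83 in controls) and weighs most in the sums. The part of these markers in the rise of Tdgf1 was not tested.

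Of the receptors, Acvr2b (type II) lay at 8.96, 9.77 and 9.49 on RA arrays and at 8.83, 8.62 and 8.74 on control arrays. RA array 1, the array with the high Gapdh ratio, was the lowest of the RA arrays and only just above control array 1. The log2 fold change was 0.67 ± 0.18 (limma adjusted p = 0.0189). It was 0.90 without RA array 1 and remained called, but it was not called without RA array 2 (0.49), RA array 3 (0.63) or control array 2 (0.63). The other 2 Acvr2b probe sets were below the filter.

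Acvr1b, the type I partner, lay at 8.96, 8.88 and 8.86 on RA arrays and at 9.0, 8.94 and 9.02 on control arrays, and the groups overlapped. Its log2 fold change was -0.09 ± 0.10 (limma adjusted p = 0.605), with an interval of -0.31 to 0.14, and without scaling it was 0.20, also not called.

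The antagonists split. Cer1, which encodes a secreted protein that binds Nodal and BMPs, had deposited intensities of 510.3, 409.5 and 418.9 on RA arrays and 36.6, 43.7 and 16.7 on control arrays. On the normalized scale these were 9.0, 8.54 and 8.60 with RA, against 5.78, 5.79 and 5.29 in controls. The groups were far apart, and the control values sat close to or below the filter level, so the fold is open to background. The log2 fold change was 3.09 ± 0.21 (limma adjusted p = 2.6e-06) and ranged from 2.26 with a pseudocount of 64 to 3.58 with a pseudocount of 1. The control mean (5.62) lay below the filter level, so this probe set was kept through its RA arrays. Its call is therefore a description only. Without the filter the limma adjusted p was 1.17e-05. The second Cer1 probe set, below the filter, gave intensities of 62.2, 71.8 and 60.2 on RA arrays and 29.1, 17.5 and 3.78 on control arrays, again with no overlap.

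Markers of tissues known to express Cer1 moved with it. Of 7 anterior visceral endoderm markers, 6 were called higher, including Hhex and Dkk1, and 1 (Sfrp1) lower, with a summed normalized signal of 3673 to 3776 on RA arrays and 1306 to 1896 on control arrays. All 4 kept definitive endoderm markers were higher, with sums of 3669 to 3870 on RA arrays and 550.0 to 694 on control arrays, while Gsc lay below the filter. Otx2 also stands in the epiblast list, and Lhx1 and Foxa2 stand in more than 1 list. Their part in the rise of Cer1 was not tested.

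Fst, the activin-binding protein, had 2 kept probe sets. The brighter lay at 9.40, 9.49 and 9.21 on RA arrays, against 7.85, 7.62 and 7.20 on control arrays. All RA arrays lay well above the controls, and control array 3 was the lowest. Its log2 fold change was 1.81 ± 0.17 (limma adjusted p = 2.55e-05), and without control array 3 it was 1.66. The other probe set lay at 7.45, 7.87 and 6.85 with RA, against 5.78, 4.93 and 4.98 in controls, with a log2 fold change of 2.16 ± 0.33 (limma adjusted p = 0.000876) and because its control mean (5.23) lay below the filter level, it was kept through its RA arrays and is given as a description only. Of other cell types, parietal endoderm had 5 of 7 markers higher and 1 (Sparc) lower, with a summed normalized signal of 11179.8 to 11721 on RA arrays and 9793 to 10574 on control arrays. Its part was not tested.

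The Lefty genes encode feedback antagonists that block Nodal and its coreceptor. Lefty1 lay at 8.01, 7.92 and 8.21 on RA arrays and at 8.28, 8.11 and 8.08 on control arrays. The groups overlapped. Its log2 fold change was -0.11 ± 0.14 (limma adjusted p = 0.633), with an interval of -0.42 to 0.19, and it was 0.11 without scaling, also not called. Lefty2 lay at 6.62, 6.67 and 6.94 with RA, against 7.31, 7.22 and 6.99 in controls. All RA arrays were below the controls after normalization, but the deposited intensities, 88.2, 94.9 and 119 on RA arrays against 148.7, 145.4 and 79.3 on control arrays, overlapped. Its log2 fold change was -0.43 ± 0.20 and did not pass (limma adjusted p = 0.150). The genes are close relatives that neighbour each other on chromosome 1, with 1 protein-coding gene between them, and whether their probe sets read both transcripts was not tested.

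Across the 9 genes, RA arrays lay wholly above controls in 6, against 20.2% of all kept probe sets, and wholly below in 1 (Lefty2), against 18.2%. The 6 include Cer1, which was kept through its RA arrays. The genes are counted by their brightest kept probe set, whereas the shares are per probe set, so these counts are descriptions only.

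**Figure D2:**
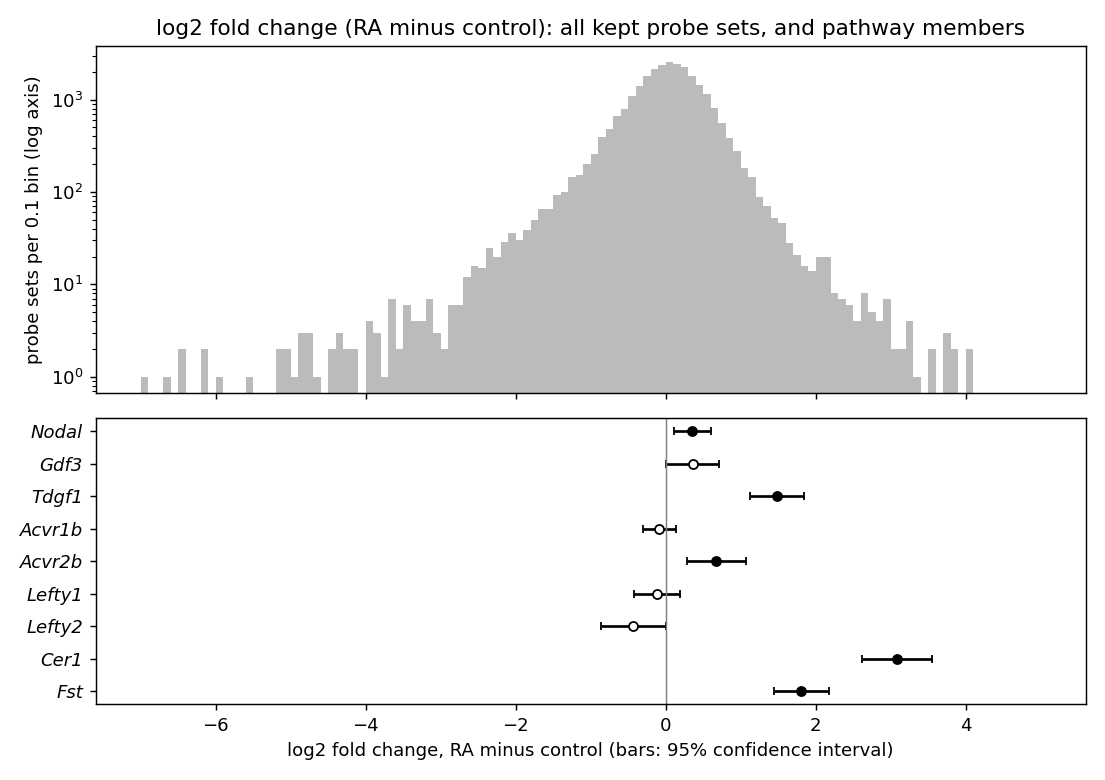
The top panel is a histogram of the log2 fold change (RA minus control) of all 27022 kept probe sets, on a log count axis. The bottom panel shows the 9 genes with 95% confidence intervals, filled where the adjusted p was under 0.05; Cer1 at 3.09, with controls near background, lies in the far right tail, while Nodal at 0.35 lies within the bulk.

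The antagonists were also set against Nodal within each array, which removes any shift shared by all genes of an array. Relative to Nodal, the log2 change with RA was 1.45 for Fst, -0.47 for Lefty1 and -0.78 for Lefty2. For Cer1 it was 2.74, but this value depends on control signals near background and was 1.95 with a pseudocount of 64 and 3.21 with a pseudocount of 1. In each of the 4 comparisons the 3 RA arrays lay wholly on one side of the 3 control arrays. The exact two-sided permutation test gave p = 0.1 for each, which is the smallest it can give here, and 0.1 after adjustment over the 4 comparisons, so none could reach 0.05. Without scaling these differences in change were 1.44 for Fst, -0.50 for Lefty1, -0.84 for Lefty2 and 2.69 for Cer1. That is a weak check, because a shift shared by all genes of an array cancels in them.

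Promoters of 5 of the 9 genes matched the RefSeq table (GRCm38.p6). Windows of 250 bases before the transcription start were searched on both strands for AATNNACA, the core recognized by Foxh1, for the Smad half-site CAGAC and for the retinoid receptor half-site AGGTCA. The windows of Nodal, Tdgf1 and Cer1 are printed 5′ to 3′ on the gene's strand, because they are the ligand, the coreceptor and the gene with the largest change among the 9. Capitals mark matches.
Tdgf1, chr9:110946159-110946408, minus strand: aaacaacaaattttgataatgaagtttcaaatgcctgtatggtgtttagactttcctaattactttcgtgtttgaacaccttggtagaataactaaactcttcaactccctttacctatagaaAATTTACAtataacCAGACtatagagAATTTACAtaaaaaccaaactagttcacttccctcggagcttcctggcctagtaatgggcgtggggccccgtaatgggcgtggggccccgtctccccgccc
Cer1, chr4:82885152-82885401, minus strand: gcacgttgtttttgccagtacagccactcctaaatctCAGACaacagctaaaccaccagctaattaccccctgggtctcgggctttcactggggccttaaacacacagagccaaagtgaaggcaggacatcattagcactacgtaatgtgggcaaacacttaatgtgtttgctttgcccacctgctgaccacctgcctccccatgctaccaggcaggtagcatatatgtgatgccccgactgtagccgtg
Nodal, chr10:61417722-61417971, plus strand: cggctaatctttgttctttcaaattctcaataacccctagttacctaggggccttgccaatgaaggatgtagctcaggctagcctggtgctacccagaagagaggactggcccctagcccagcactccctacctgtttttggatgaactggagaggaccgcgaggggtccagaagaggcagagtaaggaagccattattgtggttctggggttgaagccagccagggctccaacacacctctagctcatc

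The Tdgf1 window held 2 matches to AATNNACA, which begin 127 and 101 bases before the start, with a CAGAC match between them at 113 bases. The Cer1 window held CAGAC at 213 bases, the Acvr2b window held it on the opposite strand at 233 bases, and no motif matched in the Nodal or Acvr1b window. AGGTCA matched in 0 of the 5 windows. Of 32851 promoters of the same length, 10.9% held AATNNACA, 42.2% CAGAC and 14% AGGTCA, so single CAGAC matches are common. A match is only a description of these letters, and the searched windows are short.

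Other genes of the pathway moved unevenly. Of 48 further genes, 44 had a probe set of their own and 40 were kept, and 15 were called higher, 7 lower and 18 neither, with a median log2 fold change of 0.09. The share called was 55%, against 22.4% of all kept probe sets in either direction, 11.3% higher and 11.1% lower. The 55% is per gene, by its brightest kept probe set, whereas the other shares are per probe set. It also includes the 7 kept target genes, all called higher, from lists chosen with earlier results of these data known. The counts by role are small and are descriptions only. Among activin and related ligands, Inhbc, an activin subunit, was 1.56-fold higher (limma adjusted p = 0.0223), a call lost in 7 of 19 alternatives. Inhba, the subunit of activin A, had a log2 fold change of 1.10 ± 0.36 that did not pass (limma adjusted p = 0.0506), although it was called in 6 of the 18 alternatives in which it was tested, and its control mean (5.71) lay below the filter level. Inha, the inhibin subunit, and Gdf11 did not pass, at -0.51 and -0.16 (without scaling Gdf11 was 0.06), and Inhbe lay below the filter. Of 5 kept ligands 1 was higher and 0 were lower, a share near that of all kept probe sets.

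Among receptors and coreceptors, 1 of 6 kept genes rose and 3 fell. Cfc1, the second EGF-CFC coreceptor and so a relative of Tdgf1 in role, averaged 8.39 ± 0.23 with RA and 6.98 ± 0.27 in controls (SD, n = 3) and was 2.65-fold higher (limma adjusted p = 0.000314). The TGF-beta receptor genes Tgfbr1, Tgfbr2 and Tgfbr3 fell, with log2 fold changes of -0.68, -0.67 and -0.83, although none of these 3 calls held without scaling. Tgfbr1 and Tgfbr3 each had 2 kept probe sets, of which 1 was called lower. Acvr1c, another type I receptor used by Nodal, lay below the filter. Mesenchymal markers, which were also lower in all 4 listed genes, had a summed normalized signal of 2074 to 2266 on RA arrays and 14914 to 17374 on control arrays, and their part was not tested.

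Among inhibitors, Bambi, a decoy receptor of the family, averaged 9.27 ± 0.14 with RA and 10.54 ± 0.07 in controls (SD, n = 3), a log2 fold change of -1.26 ± 0.10 (limma adjusted p = 5.8e-06). Pmepa1, a membrane protein that holds back Smad signalling and is induced by it, was 1.40-fold higher (limma adjusted p = 0.0379), which was lost in 9 of 19 alternatives. Of its 2 kept probe sets, 1 was called higher. Dand5, a Cerberus relative, did not pass (-0.53 ± 0.34), and the follistatin relative Fstl3 lay below the filter. Of the convertases that cleave the Nodal precursor, Pcsk5 fell (-0.81 ± 0.16), a call lost without scaling and with the mean of its probe sets, and Furin and Pcsk6 did not pass, at -0.26 and 0.05, and their signs turned in some settings (Furin was 0.0062 without scaling, and Pcsk6 was -0.09 without RA array 2).

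Of 5 transducers 2 rose and 1 fell. Foxh1, the forkhead partner of the Smad complex, averaged 8.84 ± 0.38 with RA and 6.84 ± 0.31 in controls (SD, n = 3) and was 4.0-fold higher (limma adjusted p = 8.33e-05), and all 3 of its kept probe sets were called higher. Smad4 rose by 0.29 and Smad3 fell by 0.34 on the log2 scale, with limma adjusted p values of 0.0390 and 0.0298, and these calls were lost in 10 and 11 of 19 alternatives. Of the kept probe sets, 2 of 3 for Smad4 were called higher and 1 of 2 for Smad3 lower. Zfyve9, the Smad anchor, did not pass (-0.09 ± 0.23), with signs in both directions across settings.

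Of 11 kept genes in the list of intracellular repressors, 3 rose and 1 fell. Rnf111, which was not called, stands in this list but is not itself a repressor of the pathway. Tgif1, a homeobox corepressor of Smad complexes, was 1.66-fold higher (limma adjusted p = 0.000857), and Trim33, a ubiquitin ligase that binds Smads, was 1.49-fold higher (limma adjusted p = 0.00888). Ppm1a, a phosphatase, was 1.33-fold higher (limma adjusted p = 0.0217), a call lost in 6 of 19 alternatives. Of its 7 kept probe sets, 2 were called higher. Drap1, which in the mouse embryo limits Nodal signalling through Foxh1, fell by 0.93 on the log2 scale (limma adjusted p = 0.000791), a call lost without scaling.

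Of the genes listed as pathway targets, all 7 that were kept rose. Gsc lay below the filter, at 5.13, 7.05 and 5.49 on RA arrays and 4.35, 4.90 and 6.0 on control arrays, and the groups overlapped. Cyp26a1, which clears RA and is also a direct RA target, Eomes, Lhx1 and Sox17 were 8.14, 6.48, 6.33 and 4.34-fold higher, with limma adjusted p between 1.32e-07 and 4.44e-06. Of 2 kept Sox17 probe sets 1 was called higher, and their mean gave a log2 fold change of 1.37, against 2.12 for the brighter. This list was chosen with earlier results of these data known and is shared with primitive streak and endoderm marker lists, so it is not independent evidence of a direction.

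**Figure D3:**
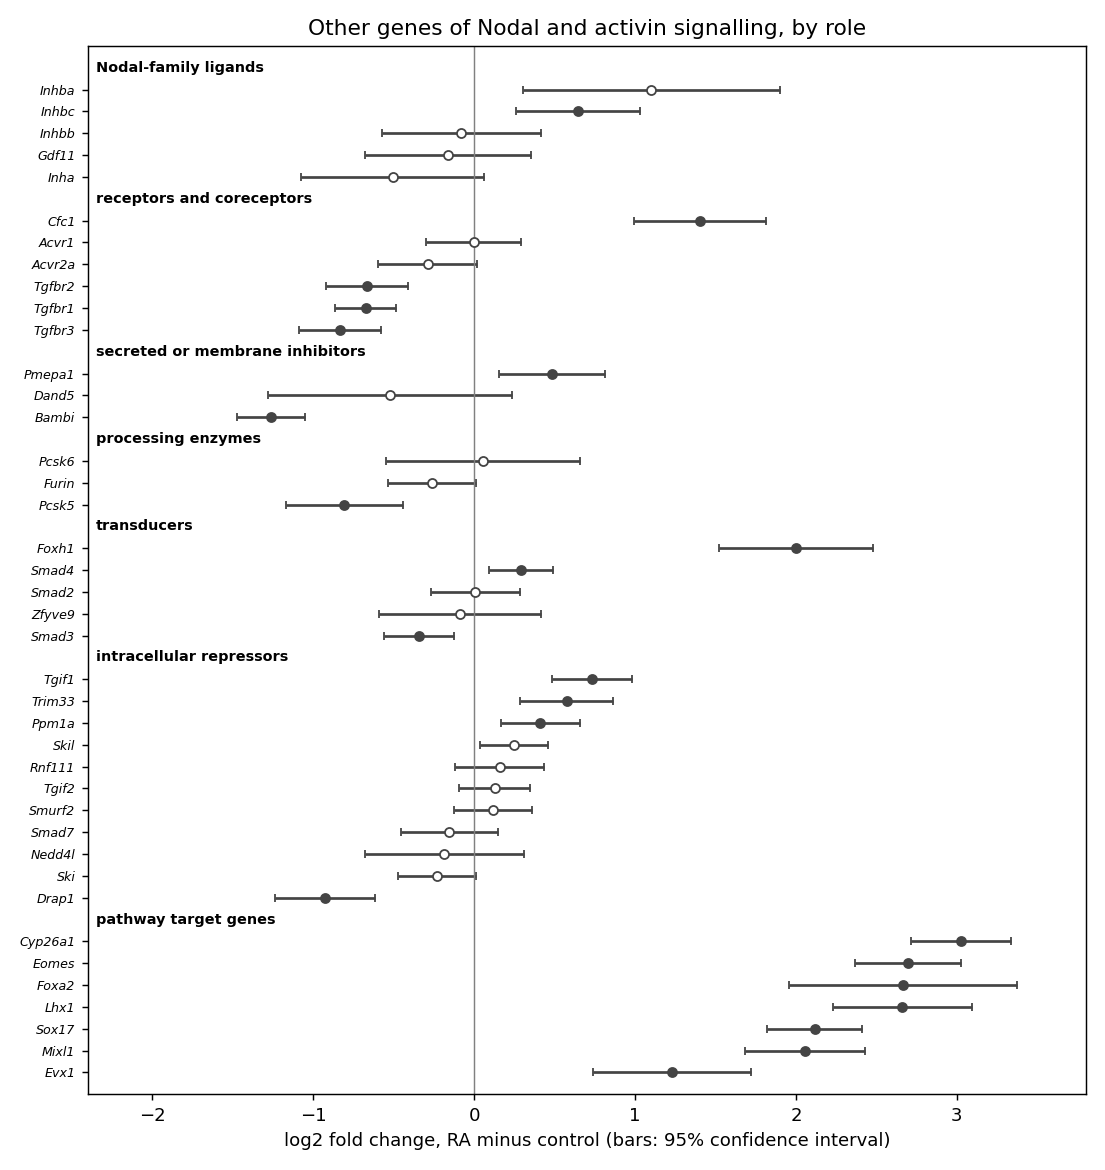
Log2 fold change (RA minus control) with 95% confidence interval for the 40 other kept pathway genes, grouped by role and filled where the adjusted p was under 0.05. All 7 kept target genes lie right of 0, Foxh1 and Cfc1 stand out among signalling components, and Bambi lies farthest left.

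The patterns most like each gene were read from Pearson's r of normalized values over the 6 arrays, among 12840 other genes. Because both groups enter, r carries the difference between groups, and it is a description only. Nodal was most like Pwp2 and Ssbp1 (r of 0.996 for both), Gdf3 like Psme3ip1 (0.999) and Riox1 (0.992), and Tdgf1 like Pdcd11 (0.998) and Zfp281 (0.997). Cer1 was most like Lyar and Rfx4 (0.999 for both), and Fst like Zdhhc6 (1.00) and Syncrip (0.998). Acvr2b was most like Sars (0.989) and Ppan (0.986), Acvr1b like Rxylt1 (0.993) and Gata5 (0.988), Lefty1 like Smg8 (0.988) and Rsad1 (0.984), and Lefty2 like Inpp5e (0.995) and Gatd1 (0.991). An r above 0.95 was shared by 834 genes with Cer1, 727 with Fst, 508 with Tdgf1, 429 with Nodal and 9 with Lefty1, so most of these neighbours have many equals.

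**Figure D4:**
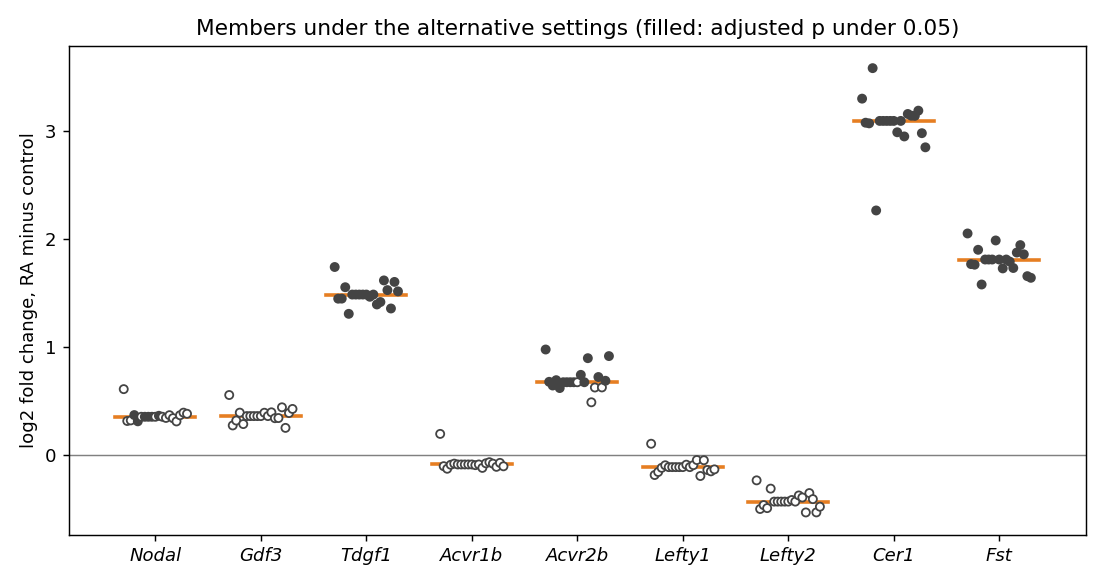
Log2 fold change (RA minus control) of the 9 genes in each alternative setting, filled where the limma adjusted p was under 0.05, with the reported value as an orange bar. Cer1, Fst and Tdgf1 were called in all 19 settings, Acvr2b in 15 and Nodal in 6, and Gdf3, Acvr1b, Lefty1 and Lefty2 in 0. The Cer1 calls are a description only, because its control mean lay below the filter level.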

How the data were processed

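Total RNA of 3 RA and 3 control samples was labelled as biotinylated cRNA and hybridized to Affymetrix arrays, per the labels' protocols. The authors deposited a linear intensity for each of 45101 probe sets, made with GCOS default settings per the labels, for which no version, signal parameters or detection calls were stated in the sources. The number of arrays limits the precision. Gene names came from the platform annotation, and all 9 genes matched RefSeq by gene identifier.

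The 64 control probe sets were left out. A pseudocount of 16 was added, log2 was taken and arrays were quantile normalized. Probe sets whose mean over 6 arrays was above the 40th percentile were kept. The RA and control arrays were tested using limma (version 3.58.1, R 4.3.3; lmFit and eBayes with trend, two-sided), with Benjamini-Hochberg adjustment over all 27022 kept probe sets and a threshold of 0.05. The fit was run on simulated arrays with known changes as a check of the code only, which does not test the calls made here. For marker lists, the normalized linear signal was summed over kept genes on each array.

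The members, pathway lists and markers were chosen with earlier results of these data known. All members are named, with the 4 pathway genes of smallest p in each role and those below the filter, and the 2 genes with the highest r to each member. Alternatives changed scaling, pseudocount, filter, feature, variance model, replicate block and arrays.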

Additional observations from a re-analysis of the deposited data

How the results depend on the processing

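Over 19 alternative settings, Cer1, Fst and Tdgf1 kept their direction and their call, and Nodal and Acvr2b kept their direction but were not called in 13 and 4. Direction could not turn in settings that changed only the filter, the variance trend or the replicate block, or that took the brightest probe set. These leave the fold change as it was. Without scaling, 1025 probe sets and 1 pathway gene were lower, against 3008 and 7 as reported, and Acvr1b (0.20), Lefty1 (0.11), Gdf11 (0.064), Furin (0.0062) and Zfyve9 (0.14) turned sign, all uncalled. Testing 1 value per gene lowered the number of features and so the counts: 1949 higher and 2127 lower with the brightest probe set, and 1754 higher and 1861 lower with the mean of probe sets. These are counts and not shares of the features tested. Without a variance trend 3 members were called higher (Nodal and Acvr2b were not), and over all probe sets 2115 were higher and 2254 lower. Leaving out single arrays gave 3 to 4 members, 3 of them without RA array 2, RA array 3 or control array 2, and a Gapdh ratio difference of -0.18 (without RA array 1) to 15.3. Calls over all probe sets fell as well: 2416, 2371 and 2128 were higher without RA arrays 1, 2 and 3, against 3051 as reported. Small uncalled values turned sign for Zfyve9 with array weights (0.032), without RA array 1 (0.043), without control array 3 (0.067) and without both (0.20), for Pcsk6 without RA array 2 (-0.092) or control array 2 (-0.057), and for Gdf11 without RA array 3 (0.030); leaving out single arrays, Gdf11 ranged from -0.31 to 0.030 and Zfyve9 from -0.21 to 0.067. The causes were not tested. Without RA array 1 and control array 3 together, 4 members were called, a count given without the calls over all probe sets in that setting. Whether arrays with the same replicate number belong together is not known. The deviations of same-numbered arrays from their group means correlated at -0.08 to -0.01, which with 3 arrays per group cannot decide it. With the replicate block 4 members, 13 pathway genes higher and 6 lower were called, and Nodal was not (limma adjusted p = 0.0844). Over all probe sets, 2704 were then called higher and 2735 lower. The block cannot move the within-array differences, since every replicate number has an RA and a control array. They were again -0.47 (Lefty1), -0.78 (Lefty2), 2.74 (Cer1) and 1.45 (Fst). Their exact two-sided permutation p, with signs changed within replicate numbers, was 0.25 for each, against 0.1 as reported. Genes near the filter level, such as Cer1 in controls, are limited by background, and the Cer1 call is a description only.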
